A study of Homo sapiens with 22 samples.

Results

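The regions described here are 365 replication initiation zones of DLD-1 cells (a line from a human colorectal adenocarcinoma), each at least 25000 and under 90000 bp wide and each overlapped by exactly 1 MTBP peak. Coordinates are those of the authors' lists (hg38). The zones were taken from the deposited list of 2473 zones on chromosomes 1 to 22 and X, of which 1527 lay in that width range, so single-peak zones made up 23.9% of the zones of middle width. Members were chosen by zone width and by the number of MTBP peaks, and neither is a result. Within the same width range 193 zones had no MTBP peak, 365 had 2 and 604 had 3 or more, and these serve as comparison. Zones with a single peak were also found outside the range: 193 were narrower and 13 were wider.

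The study mapped MTBP by CUT&RUN, in which an antibody brings a nuclease to its target and the released DNA is sequenced, and sites of early replication by EdU-seq, in which newly made DNA is labelled with a thymidine analogue and sequenced. The 22 libraries formed 8 groups, all in DLD-1 cells with endogenously tagged MTBP. CUT&RUN with a FLAG antibody was done in 3 libraries each of MTBP-mAID/MTBP-WT-FLAG cells, of MTBP-mAID/MTBP-deltaC-FLAG cells, where MTBP lacks its C-terminal end, and of MTBP-mAID/MTBP-mAID cells, which have no FLAG tag and served as control. CUT&RUN with IgG and with an antibody to H3K4me2, 2 libraries each, was done in MTBP-mAID/MTBP-WT-FLAG cells. EdU-seq had 3 libraries each of MTBP-mAID/MTBP-WT-FLAG cells arrested in G1, of the same genotype released into S phase and of released MTBP-mAID/MTBP-deltaC-FLAG cells, with 10 µM EdU for 3 hr. Hydroxyurea and aphidicolin, which stall replication forks, were present, so a zone is a stretch replicated early in S phase under fork stalling. Every tagged line also carries a copy of MTBP fused to mAID, a degron tag, and whether that copy was degraded, and how many clones were used, is not given in the sources used here. The lists give 1 value per peak or zone for a line or a mark, with no values per library, and they hold no expression, so the identity of the line was not checked here. No comparison below could be tested over replicates. The 95% intervals are exact binomial intervals over zones, peaks or start sites, and they cover counting error only, not the spread between cultures. The depth of the libraries is unknown.

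MTBP is the partner of Treslin. In the step that fires an origin, the pair helps to load CDC45 and GINS onto the MCM helicase that was placed on DNA in G1 phase, after cyclin-dependent kinase has acted on Treslin. Metazoan replication starts in broad zones rather than at fixed sequences, and early zones usually lie in open chromatin around active genes. H3K4me2 marks active promoters and enhancers.

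Single MTBP peaks sat mainly at promoters, so the promoter sequences are shown first. The sequence table held start sites for 15811 of the 19970 protein-coding genes (79.2%). Of the 365 peaks, 144 (39.5%) had such a start site within 1 kb of the summit. The stretches below are the 200 bases before the start site, written from 5′ to 3′ on the gene's strand, from RefSeq's GRCh38.p14 table. OPA3 (chr19:45584803-45585002, minus strand), a gene for a mitochondrial protein mutated in optic atrophy, ABHD2 (chr15:89088256-89088455, plus strand), a lipase gene, and PPP6R3 (chr11:68460552-68460751, plus strand), a regulatory subunit of a protein phosphatase, had the highest-scoring single peaks with start sites on 1 strand. MXD4 (chr4:2262110-2262309, minus strand), a MAX-binding repressor, and UBE4B (chr1:10032758-10032957, plus strand), a ubiquitin ligase, had low deltaC signal relative to WT. They were among the lowest of the single peaks whose WT and deltaC signals summed to at least the median. SLC25A3 (chr12:98593486-98593685, plus strand), the mitochondrial phosphate carrier, had its peak at the zone centre. RALGPS1 (chr9:126914582-126914781, plus strand), an exchange factor for Ral GTPases, and FAM174C (chr19:1275330-1275529, plus strand) had their zones on opposite sides of the start site. Capitals mark matches on either strand to TGACTCA (an AP-1 site, TGAGTCA on the other strand), CCGGAAG (an ETS site) and GGGCGG (a GC box), where overlapping matches run together.
OPA3: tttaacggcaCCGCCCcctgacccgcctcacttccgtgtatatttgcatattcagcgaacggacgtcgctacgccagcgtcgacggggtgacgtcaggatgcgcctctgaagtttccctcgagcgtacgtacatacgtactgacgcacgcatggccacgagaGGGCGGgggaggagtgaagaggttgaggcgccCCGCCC
ABHD2: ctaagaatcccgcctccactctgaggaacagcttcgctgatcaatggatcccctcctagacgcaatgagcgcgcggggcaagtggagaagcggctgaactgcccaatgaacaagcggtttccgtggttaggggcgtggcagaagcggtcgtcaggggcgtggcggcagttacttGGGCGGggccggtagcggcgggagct
PPP6R3: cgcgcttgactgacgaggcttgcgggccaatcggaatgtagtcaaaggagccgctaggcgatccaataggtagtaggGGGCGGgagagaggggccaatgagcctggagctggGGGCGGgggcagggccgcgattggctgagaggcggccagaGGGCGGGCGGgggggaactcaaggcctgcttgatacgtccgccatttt
MXD4: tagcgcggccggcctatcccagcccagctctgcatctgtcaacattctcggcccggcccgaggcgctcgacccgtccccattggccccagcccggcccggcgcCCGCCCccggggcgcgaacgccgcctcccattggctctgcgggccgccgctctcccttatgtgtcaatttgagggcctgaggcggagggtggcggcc
UBE4B: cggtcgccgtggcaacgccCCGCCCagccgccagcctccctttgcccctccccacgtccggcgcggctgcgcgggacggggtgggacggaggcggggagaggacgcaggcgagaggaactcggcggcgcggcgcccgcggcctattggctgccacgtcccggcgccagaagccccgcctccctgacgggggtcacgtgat
SLC25A3: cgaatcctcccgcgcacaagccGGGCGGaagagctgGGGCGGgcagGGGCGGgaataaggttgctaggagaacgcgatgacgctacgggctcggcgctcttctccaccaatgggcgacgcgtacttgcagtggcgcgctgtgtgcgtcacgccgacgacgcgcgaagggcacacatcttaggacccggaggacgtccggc
RALGPS1: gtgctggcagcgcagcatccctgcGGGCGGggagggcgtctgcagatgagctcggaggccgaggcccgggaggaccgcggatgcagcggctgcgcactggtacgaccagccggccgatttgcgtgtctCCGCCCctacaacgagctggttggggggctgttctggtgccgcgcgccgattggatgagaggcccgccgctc
FAM174C: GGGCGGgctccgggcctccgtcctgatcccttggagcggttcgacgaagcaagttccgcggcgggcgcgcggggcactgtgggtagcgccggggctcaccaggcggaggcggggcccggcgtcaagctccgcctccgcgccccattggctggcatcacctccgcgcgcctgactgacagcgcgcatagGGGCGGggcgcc

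All 8 stretches held a GC box and none held the AP-1 or the ETS letters. They were picked from the 28 stretches of the named zones after their letters were known, and of the 28, 19 held GGGCGG, 1 at AHSA1 held the ETS letters and 0 held the AP-1 letters. The 8 contained between 16 (PPP6R3) and 30 (UBE4B) CG dinucleotides. The median was 14 over the 22131 start sites of the table. It was 18 over the 7995 start sites in any MTBP peak and 19.5 over the 164 in a single one. Among the 164 start sites that lay in a single MTBP peak, 72.6% had GGGCGG in these 200 bases (95% interval 65.1 to 79.2%). Some of these start sites share a peak and part of their 200 bases, so this interval is likely too narrow. The share with GGGCGG was 66.1% over the 7995 start sites in any MTBP peak and 50.9% over all start sites. CCGGAAG was found in 17.1% of the 164, in 16.4% of those in any MTBP peak and in 9.61% of all. The AP-1 letters were found in 2.44%, 2.26% and 2.87%. The GATA letters AGATAAG were found in 0.61%, 0.70% and 1.56%. Runs that could form a G-quadruplex (4 blocks of at least 3 G with gaps of 1 to 7 bases, either strand) were found in 26.2%, 26.2% and 26.0%. Thus the promoters under single peaks had the letters and the base composition of promoters with MTBP in general, with a median GC content of 67.5% against 66.5%. A match describes the letters in this window and is not a site of binding.

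The location class, which the authors gave each peak, was promoter for 225 of the 365 single peaks (61.6%, 95% interval 56.4 to 66.7%), enhancer or super-enhancer for 58 (15.9%) and others for 82 (22.5%). The promoter share was 54.4% of the peaks in zones with 2, 37.3% in zones with 3 or more, and 32.8% of the peaks outside zones. Taking only the highest-scoring peak of each zone gave 54.2% with 2 peaks and 36.9% with 3 or more, so the lower share in zones rich in MTBP was also seen in 1 peak per zone. Among single peaks, enhancer peaks had a higher median score than promoter peaks, so this pick may favour enhancer peaks. Enhancer peaks made up 15.9%, 14.7% and 26.5% in zones with 1, 2 and 3 or more, so their share was higher in the last group, where that of promoters was lowest.

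**Figure D1:**
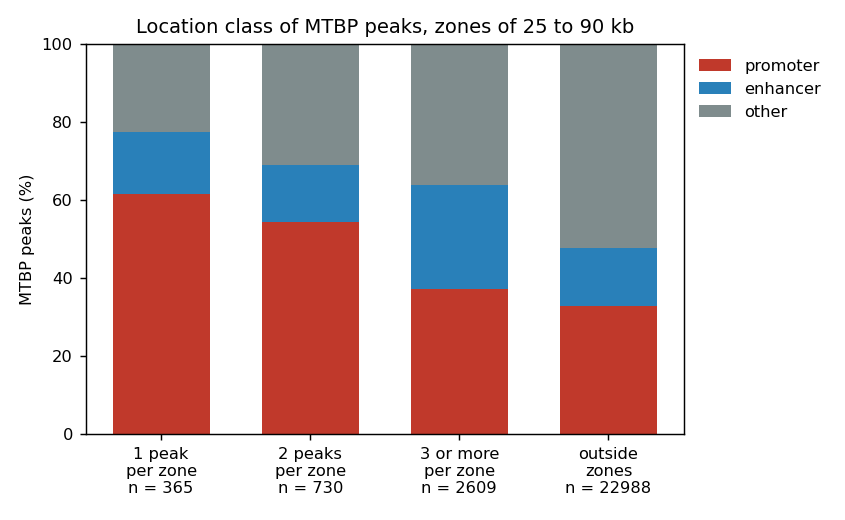
Stacked bars give the percentage of MTBP peaks in the authors' promoter, enhancer and other classes, for zones of 25 to 90 kb by their number of MTBP peaks and for MTBP peaks outside zones. The promoter part falls from 61.6% with 1 peak per zone to 37.3% with 3 or more, and is 32.8% outside zones.

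Width moved with class. In single-peak zones of 25 to 40 kb the promoter share was 69.7% (99 of 142), at 40 to 60 kb 59.7% (89 of 149), and at 60 to 90 kb 50% (37 of 74). In the narrowest bin, zones with 2 and with 3 or more peaks had 49.5% and 36.6%. In the widest bin these were 53.7% and 38.4%, so the distance between single-peak and 2-peak zones was seen at 25 to 40 kb and not at 60 to 90 kb. The widest bin has only 74 single peaks, and the shares of the other groups at 40 to 60 kb are not given here. By the authors' finer annotation, 36.4% of single peaks were at a promoter or start site (18.8% of all 29848 MTBP peaks) and 11.0% in a CpG island (4.33%). Introns held 13.4% (28.0% of all) and LINE repeats 3.01% (6.23%), while intergenic DNA held 17.8% (20.7%). The distance from the nearest start site, as the authors gave it, had a median of 200 bp for promoter peaks, 8914.5 bp for enhancer peaks and 9692 bp for the others.

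Where the peak lay in its zone was not part of the choice. The summit distance from the zone centre was put on a scale of 0 at the centre and 100 at the zone end. Over all 365 peaks it had a median of 53.8 and ran from 0.0607 to 104. The 5 equal bands from centre to end held 68, 71, 66, 79 and 74 summits, close to the 20% each that an even spread gives, and 7 summits lay just outside. The H3K4me2 peaks without MTBP in the same zones had a median of 50.6 (n = 602), MTBP peaks in zones with 2 had 53.3, and those in zones with 3 or more had 49.6. Taken over all classes, then, single summits were spread about evenly between centre and end. The nearest zone end was a median of 10654.5 bp from the summit.

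Split by class, the positions differed. Promoter peaks lay in the outer part: their median was 58.2, and 37.8% of them (95% interval 31.4 to 44.5%) had summits within 50 on this scale. The other peaks lay nearer the centre, with a median of 34.8 and 64.6% (53.3 to 74.9%) within 50. Enhancer peaks had a median of 38.3 and 56.9% (43.2 to 69.8%). The intervals of promoter and other peaks do not overlap, whereas that of enhancer peaks overlaps both. The innermost band held 11.1% of promoter peaks, 27.6% of enhancer peaks and 32.9% of other peaks.

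**Figure D2:**
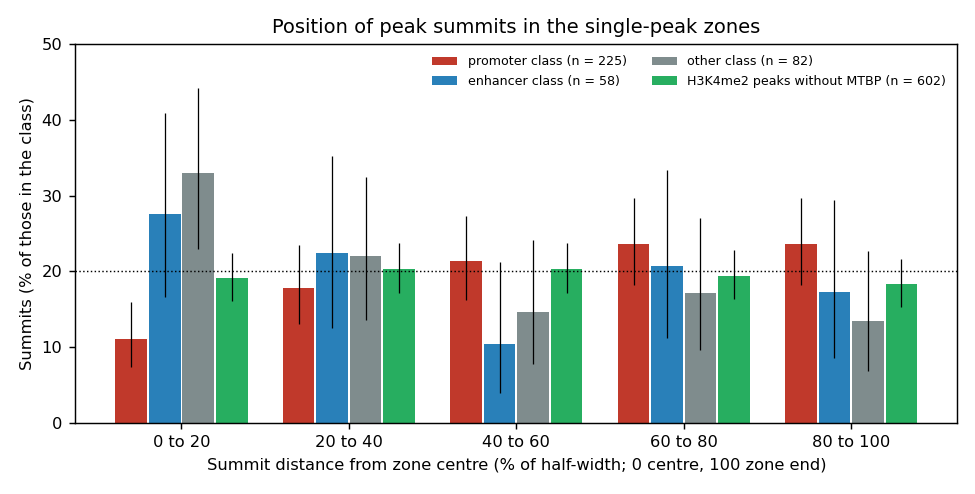
Bars give the percentage of summits in 5 equal bands from the zone centre (0) to the zone end (100), for single MTBP peaks of each class and for H3K4me2 peaks without MTBP in the same zones, with exact 95% binomial intervals and a dotted line at 20%. Promoter peaks have 11.1% in the innermost band and 23.6% in the outermost, other peaks 32.9% and 13.4%.

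Named zones show the ends of this range. The peaks nearest a zone centre were an intergenic enhancer peak between ECHDC3 and PROSER2 (chr10:11762037-11826332, 0.0607), the SLC25A3 promoter (chr12:98572389-98614772, 0.139), a peak near GRK2, a receptor kinase gene (chr11:67250466-67285616, 1.04), and an enhancer peak near SH2B3, a signalling adaptor (chr12:111369652-111423527, 1.26). All but the SLC25A3 promoter lay over 1 kb from a gene end, though the peak near GRK2 was also in the promoter class. Those nearest an end were an intronic peak in the zone of POFUT1, which adds fucose to Notch receptors (chr20:32228100-32284095, 99.8), one near SMAD7 (chr18:48847550-48902409, 99.6), one in an LTR near LRRC71 (chr1:156858607-156926556, 99.2) and one in the zone of NRAP (chr10:113644649-113676427, 98.9). In the 7 zones whose peak only reached over the end, the summit was 22 to 757 bp outside. They included the promoters of AHSA1, an activator of the HSP90 chaperone, of TMEM258 and FEN1, a divergent pair in which FEN1 codes for the flap nuclease of lagging-strand synthesis, and of ARHGAP18 and RALGPS1. In a zone that begins next to MYC (chr8:127743365-127798583), the peak was an enhancer-class peak at the end of the gene, with its summit 414 bp outside.

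The place of promoter peaks became plainer when the zone was turned to the direction of transcription, a measure chosen after the data had been seen. Start sites on chromosome 8, where 8 of the zones lie, were not used here, so these zones could not enter the counts. Of the 144 peaks with a start site within 1 kb, 12 had start sites on both strands and 132 on 1 strand. In 121 of the 132 (91.7%, 95% interval 85.6 to 95.8%) the larger part of the zone lay upstream of the start site. Start sites inside genes were counted too, so the upstream part can lie within the same gene. At ACACA, for example, 29.6 kb of the zone lay upstream, but no end of ACACA lay in the zone. The share of the zone upstream had a median of 79.9% (1.66 to 99.96%), with a median of 31.6 kb upstream and 9.0 kb downstream. It exceeded 75% in 85 zones and was under 25% in 5. The 67 genes on the plus strand and the 65 on the minus strand had 91.0% and 92.3% of zones mainly upstream. The summit itself was a median of 169 bp upstream of the start.

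**Figure D3:**
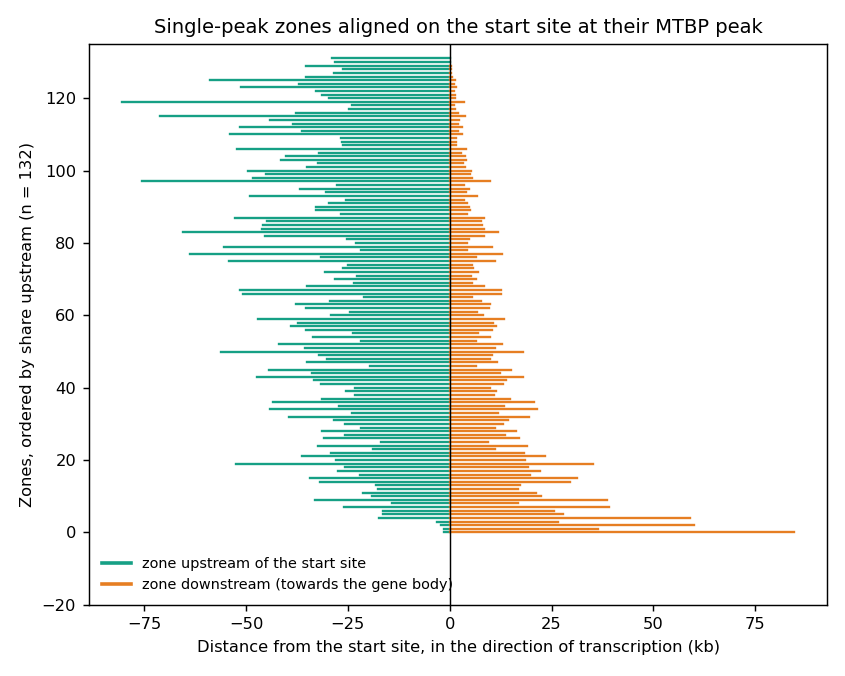
Each horizontal line is 1 of the 132 single-peak zones with a start site on 1 strand within 1 kb of the MTBP summit, placed by distance in kb from that start site (0) in the direction of transcription, with the upstream part green and the downstream part orange. In 121 zones the green part is the longer one, and its median is 31.6 kb against 9.0 kb of orange.

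In 109 of the 132 zones (82.6%) the gene ran on past the downstream end of the zone, so that zone ended inside the gene that its peak's promoter serves. Where the gene was longer than the zone (55), 98.2% of zones were mainly upstream, and where it was shorter (77), 87.0%. Protein-coding gene bodies covered 40.7% of the bases upstream and 83.8% of those downstream. The split was made at a start site, so the bases just downstream lie in that gene. With a median gene length of 37.0 kb, this largely sets the downstream value. At ABHD2, 35.2 kb of the zone (chr15:89053275-89088714) lay before the start site and 0.258 kb after. No end of ABHD2 lay in that zone, so this start site was inside the gene. UBE4B had 52.2 kb before and 3.94 kb after (chr1:9980800-10036900), DHX34, an RNA helicase gene, 26.3 kb and 0.321 kb (chr19:47323055-47349636), and MLF2 28.5 kb and 0.392 kb (chr12:6752749-6781604).

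The 5 zones with the least upstream were those of FAM174C (1.66%), MICB, which codes for a ligand of a natural killer cell receptor (3.56%), SLC25A1, the mitochondrial citrate carrier (with a share just above that of MICB), FUZ, a gene of cilium formation (10.3%), and RPL19, a ribosomal protein gene (22.8%). In 0 of these 5 (95% interval 0 to 52.2%) did the gene run past the downstream end of the zone. These zones were picked for having most of their length downstream, which largely sets this count. The FAM174C zone (chr19:1274106-1360000) holds ends of CIRBP, EFNA2 and PWWP3A as well, and the RPL19 zone (chr17:39182877-39259297) ends of CACNB1, STAC2 and FBXL20.

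The layout was not found at single MTBP peaks alone. In zones with 2 peaks 83.6% of 250 start sites at MTBP had most of the zone upstream (median 78.4%), and in zones with 3 or more, 76.0% of 495 (72.0 to 79.7%; median 73.4%). The interval of the last group lies below that of the single peaks. Single-peak zones enter at most 1 start site at MTBP each, but zones with more peaks can enter several. Start sites away from MTBP can also share a zone. The intervals treat start sites as independent, so those of these groups are likely too narrow. Start sites in the single-peak zones that lay over 1 kb from MTBP but carried H3K4me2 had 79.1% (106 of 134; 71.2 to 85.6%). Those with neither had 46.0% (75 of 163; 38.2 to 54.0%). In zones of the same width without any MTBP peak, start sites with H3K4me2 had 90.5% (86 of 95; 82.8 to 95.6%) and those without had 54.1% (46 of 85; 43.0 to 65.0%). Start sites with H3K4me2 thus had most of the zone upstream whether or not MTBP had been called there, and those without it were near an even split in both groups of zones.

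**Figure D4:**
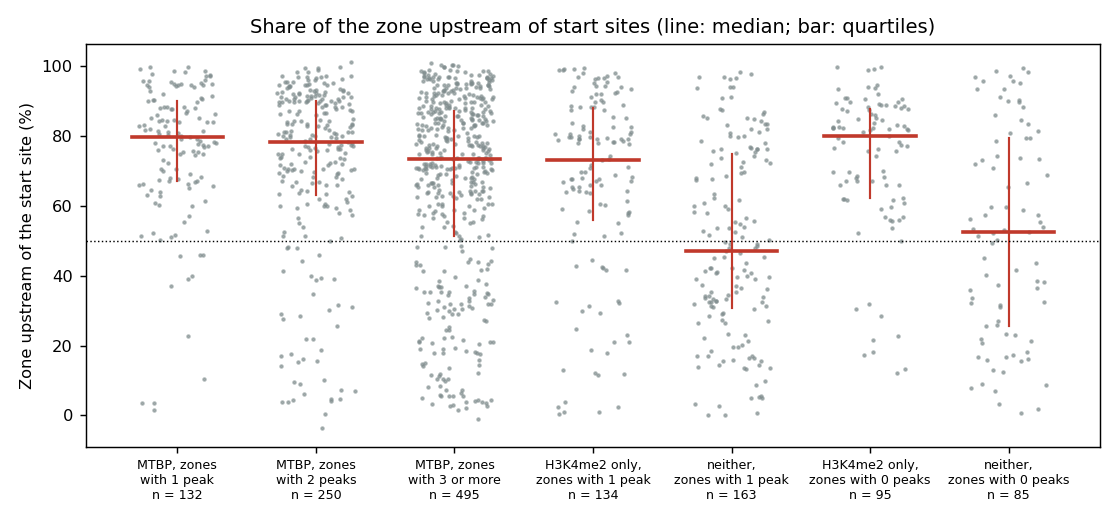
Each point is a start site, its height the percentage of the zone that lies upstream of it, with the median (thick line) and the quartiles (thin bar), for start sites at MTBP peaks by number of peaks in the zone and for start sites away from MTBP with or without H3K4me2. Medians are 79.9% at single peaks, 73.3% and 80.2% at start sites with H3K4me2 only, and 47.3% and 52.6% at start sites with neither (a few start sites lie just past a zone end, below 0 or above 100%).

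Genes framed the zones in the same way. Protein-coding gene bodies covered 46.3% of the single-peak zones and 71.6% of the 25 kb on each side. The values were near these with 0 peaks (44.4% and 70.4%), 2 peaks (45.9% and 72.8%) and 3 or more (43.2% and 66.9%). Both ends of the zone lay inside a protein-coding gene in 158 of the 365 zones (43.3%), 1 end in 154 and no end in 53. Of the 470 ends inside a gene, the gene's start side was within the zone at 218 (46.4%) and its far side at 149 (31.7%), 30 genes spanned the zone, and the strand of 73 was not in the table. In zones without MTBP, start sides were 34.4% and far sides 38.3% of 227 ends. They were 48.9% and 26.8% of 497 ends with 2 peaks, and 52.5% and 25% of 760 with 3 or more. Start sides were thus the larger share where zones held MTBP. Many MTBP peaks lie at start sites, so choosing zones by MTBP peaks favours zones that hold a start site. Nothing is read from this difference.

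The strength of the single peaks was ordinary. Their score, on a scale the file does not state, had a median of 201 (62 to 1084), against 190 over all MTBP peaks and 201 in zones with 2 and with 3 or more. The best peak of a zone had a median of 289 with 2 and 396 with 3 or more, which have more peaks to choose from. Peak width had a median of 1057 bp, against 937 bp over all. By class, the median score was 238.5 for enhancer, 190 for promoter and 170 for other peaks. The highest scores were at the promoters of OPA3 (1084), ABHD2 (977), CCT3 and TSACC, a divergent pair whose CCT3 codes for a chaperonin subunit (902), and PPP6R3 (844). The next was an intergenic peak 9759 bp from EIF5, a translation initiation factor gene (815). The lowest were near NSMF (62), and near ZFYVE9, GLIS1, PCGF6 and HDLBP (69 each).

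The authors' zone score rose with the number of MTBP peaks and with width. Its median was 414 with 0, 542 with 1 (123 to 2753), 687 with 2 and 1019 with 3 or more. Zones with more peaks were also wider, with median widths of 37306, 44864, 49951 and 61328.5 bp. Within 25 to 40 kb the median scores were 315, 366, 375 and 406, within 40 to 60 kb 601, 633, 725 and 851, and within 60 to 90 kb 789, 1022, 1305 and 1414. Single-peak zones thus stood between zones with none and zones with 2 in every width bin. The highest single-peak zone scores were those of FAM174C and CIRBP (2753), RPL19 (2453), ATAD3B, a mitochondrial ATPase gene (chr1:1400611-1478027, 2168), and BCAN and NES (chr1:156637649-156723809, 2076). The lowest were a zone near CLDN14 (chr21:36469369-36495092, 123), one near RRAS2 (148), one at ACACA, the acetyl-CoA carboxylase gene (chr17:37354953-37388660, 154), and one at MSTO1 (155).

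At the bounds of the width rule, the last zones outside were 24718 bp wide near ITGA5 (zone score 297) and 24758 bp near MGA (188). The first inside were 25069 bp near RAB8B (374) and 25388 bp near SYN2 (365). At the upper bound the last inside were 87475 bp near EIF3I (1435) and 87626 bp near NOTCH1 (413), and the first outside 92501 bp near MUC4 (2005) and 93960 bp near GINS2, a subunit of the replicative helicase (2171).

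H3K4me2 lay under 362 of the 365 single MTBP peaks (99.2%), where 98.9% of all MTBP peaks overlapped it, so the count is at the background. The 3 without were an intronic peak in the zone of LIAS and UGDH (chr4:39467025-39511889, score 150), which has no H3K4me2 peak at all, one in the zone of BAIAP2 and AATK (chr17:81116809-81186178, score 131), and the LTR peak near LRRC71 (score 86). All but that 1 zone had H3K4me2 (99.7%), against 79.3% of zones without MTBP. As 98.9% of all MTBP peaks overlap H3K4me2, choosing zones by an MTBP peak largely sets this difference, and nothing is read from it. Single-peak zones had a median of 2 H3K4me2 peaks, as did zones without MTBP, while zones with 2 had 3 and those with 3 or more had 5. The number ran from 0 (1 zone) through 1 (78 zones), 2 (111), 3 (91) and 4 (43) to 8 (3 zones). In all 78 zones with 1 H3K4me2 peak, it lay on the MTBP peak, which the choice of zones largely sets as well. Of these MTBP peaks, 71.8% were in the promoter class.

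In the 286 zones with more than 1 H3K4me2 peak, the MTBP peak lay on the one with the highest fold enrichment in 66.4% (60.6 to 71.9%). The share was 72.0% for promoter, 60.8% for enhancer and 57.8% for other peaks, over the 283 zones with H3K4me2 both at the MTBP peak and elsewhere in the zone. The authors' fold at the MTBP peak had a median of 25.1, and that of the 602 other H3K4me2 peaks in these zones 11.7. The widths were 2320.5 and 1050.5 bp, and a wider peak offers more length for an overlap. In the 94 zones where another H3K4me2 peak was higher, the median was 17.5 at MTBP and 30.7 at the highest. The MARK2 zone (chr11:63765696-63851700), named for a polarity kinase, and the RPL19 zone had the most H3K4me2 peaks, 8 each, with folds of 21.2 and 24.7 at MTBP and 45.9 and 45.6 at the highest other. The next H3K4me2 summit was a median of 10282 bp from the MTBP summit.

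A single peak in the zone did not mean a lone peak in the region. A further MTBP peak lay within 25 kb of the zone in 258 of the 365 (70.7%), against 68.2% with 2 peaks, 70.9% with 3 or more and 60.6% with none. The nearest one outside was a median of 13811 bp away. It was 161 bp to 549554 bp away from zones with none, and 46 bp to 268563 bp from single-peak zones. PPP6R3 (43302 bp) and the EIF5 zone (85161 bp) were among the more isolated, and the peak in the zone of SH2B3 (391 bp) among the least.

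The median ratio of deltaC to WT signal at single peaks was close to that at the other peaks of zones. The authors' WT signal had a median of 389 (64.7 to 1680) and the deltaC signal 181 (0 to 943), where the medians over all MTBP peaks were 371 and 201. The log2 of deltaC over WT, with 1 added to each, had a median of -1.11 (-7.73 to 0.99). It was -1.10 in zones with 2 peaks, -1.09 with 3 or more, -0.93 over all MTBP peaks and -0.87 outside zones. The scaling between the lines is not stated, so a change is read against the median of all peaks. By that measure 37 of the 365 (10.1%, 7.24 to 13.7%) were at least 2-fold lower in deltaC, where 7.64% of all MTBP peaks were. At least 2-fold above were 7 (1.92%), where 3.73% of all were. By class the medians were -1.13 for promoter and -1.01 for enhancer peaks, with other peaks next to the latter.

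**Figure D5:**
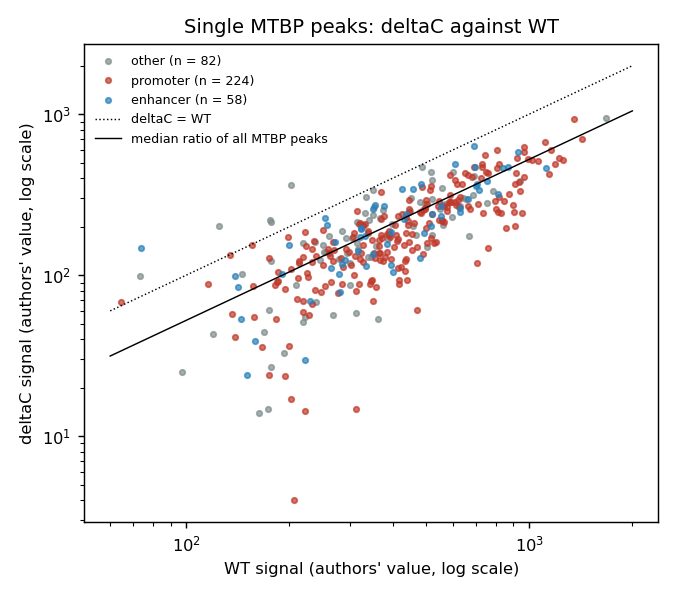
Each point is a single MTBP peak, with the authors' WT signal on the x axis and deltaC signal on the y axis (both log scales, unit not stated), coloured by class. The dotted line marks equal signal and the solid line the median ratio of all MTBP peaks, and 7 points lie above the dotted line (1 promoter peak with a deltaC signal of 0 is not drawn).

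Chromosome 17 had lower ratios than the other chromosomes as a set. Its 37 single peaks had a median log2 ratio of -1.51 and 10 were called lower, where all 1551 MTBP peaks of that chromosome had -1.22 and 264 were called lower. Without chromosome 17 the single peaks had -1.09 with 8.23% called lower, and all peaks -0.92 with 7.13%. On chromosome 6, the 18 single peaks had -0.59, and all peaks there -0.83. Ratios were also computed for chromosomes 16 and 19, which are not given here.

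Among the peaks with a sum of both signals at or above the median, the lowest ratios were at promoters. MXD4 had a WT signal of 705 and a deltaC signal of 120 (log2 ratio -2.55; zone chr4:2245157-2292939). PTGES3, a co-chaperone gene, had 761 and 147 (-2.36; chr12:56658773-56720009). UBE4B had 908 and 202 (-2.16), a peak 44956 bp from POLG, the mitochondrial DNA polymerase gene, 853 and 197 (-2.11; chr15:89373183-89410828), and a peak in the zone of CELA3A and CDC42 953 and 245 (-1.96). The highest ratios were near 0. They were found at an intergenic peak in the zone of ASIP (351 and 336; -0.06), a LINE peak 24534 bp from RNF111 (489 and 469; -0.06), an enhancer peak near UTRN, the utrophin gene (691 and 634; -0.12), a peak near CFL2 (335 and 305; -0.13) and the promoter of MTCH2, a protein of the outer mitochondrial membrane (369 and 330; -0.16). Of these 5 peaks with the highest ratios 1 was in the promoter class, and of the 5 with the lowest all were, where 61.6% of all single peaks are promoter peaks. With 5 peaks at each end, no difference is read from this.

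The names of 7 single peaks begin with deltaC and those of 358 with WT. In the deltaC-named set the largest excess was an intronic enhancer peak in the zone of NCS1, a calcium sensor gene (chr9:130137179-130190632, 74.0 in WT and 148 in deltaC; 0.99). The others were near RIMBP3C (124 and 203), PFKFB3, a regulator of glycolysis (73.3 and 99.2), DIPK1A (175 and 219), BICDL1 (177 and 214), MROH6 (64.7 and 68.3) and LRRC43 (134 and 133). Their WT signals all lay below the median of 389.

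Of the 365 zones, 311 (85.2%) held an end of a protein-coding gene, with a median of 2 such genes. They held ends of 678 of the 19970 protein-coding genes (3.40%). Of 48 genes of replication initiation, 1 did: DBF4B, an activating subunit of the CDC7 kinase, in a zone whose peak was at the promoter of its neighbour CCDC43 (chr17:44676121-44715430, score 266, log2 ratio -1.72). Of 19 Wnt target genes, 1 did: ZNRF3, a ubiquitin ligase that removes Wnt receptors, with the peak at its own promoter (chr22:28834819-28894107, score 160, log2 ratio -1.10, 7 H3K4me2 peaks). None of 28 colorectal epithelium genes, 22 colorectal cancer drivers, 17 AP-1 and immediate early genes and 15 housekeeping genes had an end in a single-peak zone. Of 48 markers of liver, neurons, blood and muscle, CKM, the muscle creatine kinase, was in a single-peak zone (chr19:45298760-45358866), where the enhancer peak lay 3172 bp from it. The lists are too short for a share near 3.40% to be read from them.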

How the data were processed

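CUT&RUN (13 libraries) and EdU-seq (9 libraries) of DLD-1 cells are represented by 3 deposited lists: MTBP peaks, initiation zones and H3K4me2 peaks. HOMER, MACS2, Bowtie2 and Trim Galore, with hg38 as the build, are named in the submitters' processing notes. For versions, parameters, the pooling of replicates and the EdU-seq libraries behind the zones, nothing was given in the sources used here. Per the file headers, the authors gave each MTBP peak a score, a signal value for WT and one for deltaC, a distance to the nearest start site, a summit and a location class, and each zone an average peak score. The scaling of these scores and signals is not stated, so they serve only to describe peaks within a list. In the deposited H3K4me2 list (narrowPeak layout) the authors gave a score, a fold enrichment over background and a summit offset, and its p-values and q-values were not used. No per-sample columns were left unused (0). The untagged, IgG and G1-arrested libraries were not analysed here.

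Lists were joined by overlap of at least 1 bp on chromosomes 1 to 22 and X (peaks on Y were left out), in Python 3.11.15 with pandas 2.3.3, numpy 2.4.6 and scipy 1.17.1, and the joins were tested on simulated data. Ratios were log2((deltaC + 1)/(WT + 1)), and a call was a 2-fold distance from the median ratio of all MTBP peaks. No test was run, since no library values were at hand. Intervals are 95% exact (Clopper-Pearson) intervals. Genes, start sites and promoter bases came from RefSeq's GRCh38.p14 tables, and 87.2% of genes with a start site had one within 1 bp of a gene end. Genes are named by an end in the zone or, failing that, as the nearest. Named zones were those with the highest and lowest MTBP scores, ratios (among peaks with a signal sum at least the median), positions and zone scores, the most H3K4me2 peaks or none at MTBP, a gene of the lists, or a width next to a bound; those with the most and the least of the zone upstream, with summits outside and with deltaC names were chosen after their values were seen. The members and gene lists were chosen with earlier results of these data known. Alternatives changed the overlap rule, the peaks or zones counted, the width range, the chromosomes, the pseudocount, the H3K4me2 measure, the gene set and the start-site window.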

Additional observations from a re-analysis of the deposited data

How the results depend on the processing

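Of 99 shares and medians recomputed under alternatives, 85 stayed within the main value's 95% interval and 14 left it. Only the median log2 ratio of deltaC to WT could change sign, and it stayed negative throughout. The number of single-peak zones, which has no interval, was recomputed 7 times and stayed within 1.5 times of 365 in 6. Keeping only zones of at least the median zone score of the width range left 126 single-peak zones, with a median summit position of 44.5, a median zone score of 1017, a gene end in 91.3% and a median of 75.6% of the zone upstream of the start site. Counting only MTBP peaks that scored at or above the median, which makes other zones single-peak zones (475), gave a promoter share of 55.6%, a median MTBP score of 289, a median zone score of 684, the single peak at the strongest H3K4me2 peak in 52.8% and most of the zone upstream at 84.5% of start sites. Zones of at least 35000 and under 80000 bp had a median zone score of 612. With H3K4me2 peaks limited to those scoring at or above their median, 86.3% of single peaks overlapped one and the median per zone was 1. Counting all genes put a gene end in 96.7% of zones. Start sites within 250 bp of the summit had most of the zone upstream in 85.1%. These start-site settings, and leaving out chromosome 17, were chosen after seeing the data. Filters on MTBP score, zone score or H3K4me2 score largely set the shift in the same measure by themselves. Counting all genes can likewise only raise the share with a gene end. The cause of the other shifts was not tested. No paired analysis was possible because the lists hold 1 value per line and peak, with no library columns, and for the same reason no replicate could be left out.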
